A study of Mus musculus with 9 samples.

Results

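The 10 genes described here are 9 enzymes of cholesterol synthesis, Hmgcs1, Mvd, Idi1, Fdps, Fdft1, Sqle, Lss, Cyp51 and Dhcr7, and the sterol sensor Insig1. They were taken by name: every probe set (the group of short DNA probes on an array that reads 1 transcript) that the array annotation gives to 1 of these symbols was read in all 9 arrays of the series. The annotation gives these genes 24 probe sets, and it names 18193 genes in all. All samples are ear skin of C57BL/6 mice, taken 6 h after topical treatment, and mRNA was measured on Affymetrix arrays. Each of 3 treatments has 3 arrays: DNFB (dinitrofluorobenzene, a contact allergen), BAC (benzalkonium chloride, a detergent and skin irritant) and vehicle alone (acetone/olive oil). Right ears received DNFB or BAC and left ears received vehicle, so ear side and treatment cannot be told apart. No doses are given in the sources used here, and nothing says whether replicates came from separate mice or whether treated and vehicle ears came from the same mice, so the groups may not be independent and the p-values cover only the spread among these arrays, part of which may be technical.

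Cholesterol is built in the cytosol and the endoplasmic reticulum from acetyl units. The first enzymes make mevalonate and turn it into isoprenoid units, the middle ones join these into squalene, and the last ones close the rings and trim lanosterol to cholesterol. The transcription factor SREBP2 switches most of these genes on together when membranes are short of sterol. INSIG1 closes the loop, since it holds SREBP and its escort SCAP in the endoplasmic reticulum when sterol is plentiful, and its own gene is an SREBP target. In skin, keratinocytes make cholesterol for the lipid barrier of the epidermis, and sebaceous glands make sterols for sebum.

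After DNFB, 5 of the 10 genes were higher than in vehicle skin (Insig1, Idi1, Fdft1, Cyp51 and Hmgcs1) and Dhcr7 was lower. After BAC, Insig1 and Idi1 were higher than in vehicle skin and Dhcr7 was lower. Between DNFB and BAC no gene of the 10 passed the test. Within the DNFB group the enzymes were spread widely: replicate 1 was the highest for 8 of the 10 genes and replicate 2 the lowest for 9.

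The promoters are shown because the genes of this pathway are textbook targets of SREBP2, which binds a sterol regulatory element and works with the factor NF-Y, whose site is the CCAAT box. RefSeq's promoter table (GRCm38.p6) holds 7 of the 10 genes, in 9 windows of the 250 bases before the start of transcription, 3 of them for Dhcr7; Fdps, Fdft1 and Sqle have no entry in it. The core TCACNCCAC, searched on both strands, lay in the window of Hmgcs1, 137 bases before the start, and in no window of the other 6 genes; 1.05% of 32841 promoters in the table hold it. CCAAT, also searched on both strands, lay in 7 of these 9 windows, against 33.9% of all promoters, and in at least 1 window of all 7 genes, against 37.5% of the 27018 genes in the table. The matches of both motifs do not overlap. The windows printed here are those of Insig1 and Idi1, called higher after each compound, those of Hmgcs1 and Cyp51, called higher after DNFB, and the window of Dhcr7 that holds CCAAT (its other 2 windows do not), each 5′ to 3′ on the gene's strand. Capitals mark the matches, with ATTGG for CCAAT on the other strand.
Insig1, chr5:28071162-28071411, plus strand: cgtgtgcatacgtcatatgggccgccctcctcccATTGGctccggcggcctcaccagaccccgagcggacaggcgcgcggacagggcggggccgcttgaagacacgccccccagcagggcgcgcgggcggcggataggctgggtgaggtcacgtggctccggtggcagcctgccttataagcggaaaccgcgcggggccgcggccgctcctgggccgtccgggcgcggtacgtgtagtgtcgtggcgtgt
Idi1, chr13:8885356-8885605, plus strand: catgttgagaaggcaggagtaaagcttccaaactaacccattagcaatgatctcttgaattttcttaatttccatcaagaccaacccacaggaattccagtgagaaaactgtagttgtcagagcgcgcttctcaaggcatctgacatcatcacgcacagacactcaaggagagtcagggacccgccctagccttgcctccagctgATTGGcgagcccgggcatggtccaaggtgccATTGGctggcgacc
Hmgcs1, chr13:119690101-119690350, plus strand: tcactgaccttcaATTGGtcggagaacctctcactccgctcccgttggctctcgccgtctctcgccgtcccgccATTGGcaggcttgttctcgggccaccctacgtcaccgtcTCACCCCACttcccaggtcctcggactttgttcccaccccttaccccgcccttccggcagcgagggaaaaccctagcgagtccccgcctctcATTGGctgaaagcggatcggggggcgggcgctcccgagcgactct
Cyp51, chr5:4104698-4104947, minus strand: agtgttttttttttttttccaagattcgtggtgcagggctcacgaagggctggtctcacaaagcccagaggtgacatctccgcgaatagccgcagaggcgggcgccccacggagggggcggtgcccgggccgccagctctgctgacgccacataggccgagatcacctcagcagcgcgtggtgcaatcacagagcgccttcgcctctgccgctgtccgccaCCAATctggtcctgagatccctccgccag
Dhcr7, chr7:143829964-143830213, plus strand: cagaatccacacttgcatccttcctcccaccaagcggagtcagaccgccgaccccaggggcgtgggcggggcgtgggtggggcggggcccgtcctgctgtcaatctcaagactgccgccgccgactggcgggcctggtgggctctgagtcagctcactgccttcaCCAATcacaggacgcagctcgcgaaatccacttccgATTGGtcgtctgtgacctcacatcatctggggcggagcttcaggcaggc
A match describes the letters only. A window without one says nothing about SREBP or NF-Y, whose sites can lie elsewhere and can differ from these letters.

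The values are MAS5 signals, the authors' linear brightness of a probe set. Levels of different probe sets are not read as relative amounts of RNA. They are set side by side only to choose 1 per gene, to mark low signals, and in the sums of marker genes. Where a gene has several probe sets, the one with the highest mean log2 value stands for it. A change is the difference of group means of log2(signal + 16), given with its standard error (SE), and 0 means no difference. Tests used limma across the 14122 genes above a filter on low signals, with p-values adjusted by Benjamini-Hochberg over all of them, and a gene is called at an adjusted p under 0.05. All 10 genes passed the filter, as did 20 of their 24 probe sets. In DNFB against vehicle 13.8% of all tested genes were called, 6.76% higher and 7.08% lower. In BAC against vehicle 14.2% were called, 6.59% higher and 7.64% lower, and the higher genes were 46.3% of the called ones as deposited and 34.0% after centring each array on its median. In DNFB against BAC 6.8% were called, 3.14% higher and 3.66% lower. Both comparisons with the vehicle use the same 3 vehicle arrays.

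Arrays of 1 group correlated at 0.935 to 0.966 over probe sets and arrays of different groups at 0.925 to 0.948. The arrays had been scaled to 1 trimmed mean of 250.001, and their median signals were 71.2 to 86.3. The Gapdh ratio of 3′ to 5′ probe set signal, a sign of RNA integrity, was 0.841, 1.36 and 0.943 in DNFB replicates 1 to 3, 0.917 to 0.932 in BAC arrays and 0.856 to 0.880 in vehicle arrays. The same ratio for actin was 1.09, 1.28 and 1.23 in DNFB replicates 1 to 3, 1.18 to 1.22 in BAC arrays and 1.05 to 1.10 in vehicle arrays. By actin, DNFB replicates 2 and 3 and all BAC arrays lay above all vehicle arrays. DNFB replicate 2, the array with the highest value of both ratios, is also the one that is lowest for most of the 10 genes. Results below are given without it where it decides a call. The part of RNA integrity in that order, or in the differences between groups, was not tested.

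Insig1, the sensor, was higher after both compounds. Its signal was 1556, 921 and 1250.0 in DNFB replicates 1 to 3, 1195, 1507 and 1543 in BAC replicates 1 to 3, and 708, 684 and 721 in vehicle replicates 1 to 3. Every treated array lay above every vehicle array, and the vehicle arrays lay close together. The log2 change was 0.77 ± 0.16 (SE) for DNFB against vehicle (adjusted p = 0.00411) and 0.98 ± 0.16 for BAC against vehicle (adjusted p = 0.000678). Leaving out single arrays gave changes of 0.60 (without DNFB replicate 1) to 0.97 (without DNFB replicate 2) for DNFB and 0.92 to 1.10 for BAC, all called.

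Hmgcs1, the enzyme that makes HMG-CoA, the precursor of mevalonate, was higher after DNFB. Its main probe set read 8339.6, 6381 and 8662 in the DNFB arrays, 5789, 6601 and 6424 in the BAC arrays, and 5609.7, 6597 and 5391 in the vehicle arrays. DNFB replicates 1 and 3 stood above all other arrays, while DNFB replicate 2 lay among the BAC and vehicle arrays. The log2 change was 0.40 ± 0.12 (adjusted p = 0.0408) for DNFB against vehicle, and 0.10 ± 0.12 (adjusted p = 0.649) for BAC against vehicle. The DNFB call rests on single arrays: it was lost without DNFB replicate 1, DNFB replicate 3, BAC replicate 2, vehicle replicate 1 or vehicle replicate 3 (log2 change 0.32 to 0.40, adjusted p 0.0508 to 0.160), and also with quantile normalization (0.24, adjusted p = 0.190) or when its 5 probe sets were averaged (0.24, adjusted p = 0.261).

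Mvd, which decarboxylates mevalonate diphosphate to the first isoprenoid unit, read 455, 463 and 519.8 after DNFB, 437, 411 and 436 after BAC, and 398, 449.9 and 459.6 after vehicle. The DNFB arrays all lay above the BAC arrays and overlapped the vehicle arrays. Its log2 change was 0.13 ± 0.13 for DNFB against vehicle (adjusted p = 0.564) and -0.023 ± 0.13 for BAC against vehicle (adjusted p = 0.931). The 95% intervals ran from -0.13 to 0.40 and from -0.29 to 0.24.

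Idi1, the isomerase that balances the pair of isoprenoid units, was higher after both compounds. The signals were 3479, 2403 and 2792 in DNFB skin, 2376, 2680.0 and 2219 in BAC skin, and 1491, 2098 and 1537 in vehicle skin. No treated array reached down to the highest vehicle array, replicate 2. The DNFB change was 0.75 ± 0.15 (adjusted p = 0.00297) and stayed called without any single array, at 0.61 to 0.91. The BAC change was 0.51 ± 0.15 (adjusted p = 0.0318), and it was no longer called without BAC replicate 1 or 2 or vehicle replicate 1 or 3 (0.43 to 0.53, adjusted p 0.0620 to 0.139) or with each array centred on its median (0.43, adjusted p = 0.0979).

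Fdps, which joins isoprenoid units to farnesyl diphosphate, was widely scattered after DNFB, at 3364, 1784 and 2475. It read 2032, 2531 and 2306 after BAC and 1891, 2391 and 2160.2 after vehicle. DNFB replicate 1 was the highest of the 9 arrays and DNFB replicate 2 the lowest. The log2 change was 0.20 ± 0.18 for DNFB against vehicle (adjusted p = 0.528) and 0.093 ± 0.18 for BAC against vehicle (adjusted p = 0.779), and without DNFB replicate 1 the DNFB change was -0.025.

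Fdft1, squalene synthase, takes farnesyl diphosphate into the sterol branch. Its signal was 2305, 1327 and 1731 after DNFB, 1363, 1649 and 1613 after BAC, and 1146, 1151 and 1203 after vehicle. The vehicle arrays were tight and lay below every treated array, and DNFB replicate 1 stood well above the rest. The DNFB change was 0.57 ± 0.16 (adjusted p = 0.0232), and it was not called without DNFB replicate 1 (0.37, adjusted p = 0.0979), DNFB replicate 3 or any 1 of the vehicle arrays (0.56 to 0.60, adjusted p 0.0514 to 0.0717). The BAC change was 0.39 ± 0.16 (adjusted p = 0.114), and it was called when DNFB replicate 1 or 2, which enter only through the shared estimate of the spread, was left out (adjusted p = 0.0423 and 0.0468).

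Sqle, squalene epoxidase, had signals of 2228, 1482 and 1899 in DNFB skin, 1416, 2034 and 1645 in BAC skin, and 1301, 1467 and 1352 in vehicle skin. The DNFB arrays lay above the vehicle arrays, replicate 2 only just, while BAC replicate 1 fell among the vehicle arrays. Its change after DNFB, 0.42 ± 0.15, did not pass the test (adjusted p = 0.0793), but did without DNFB replicate 2 (0.58, adjusted p = 0.0213). After BAC it was 0.29 ± 0.15 (adjusted p = 0.231).

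Lss, which folds squalene epoxide into lanosterol, read 687, 377 and 625 after DNFB, 542, 603 and 467 after BAC, and 399, 489 and 383 after vehicle. DNFB replicate 2 was the lowest of all 9 arrays, below the vehicle, and the other DNFB arrays were the highest. The DNFB change was 0.36 ± 0.19 (adjusted p = 0.253), and 0.62 without DNFB replicate 2 (adjusted p = 0.0214). The BAC change was 0.33 ± 0.19 (adjusted p = 0.281).

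Cyp51, the demethylase that starts the trimming of lanosterol, was at 1729.7, 1189 and 1351 in DNFB skin, 1137, 1396 and 1121 in BAC skin, and 946, 1059.7 and 909 in vehicle skin. Every treated array lay above the vehicle arrays. The change was 0.53 ± 0.14 for DNFB against vehicle (adjusted p = 0.0193) and 0.32 ± 0.14 for BAC against vehicle (adjusted p = 0.153). The DNFB call was lost without DNFB replicate 1 (0.38, adjusted p = 0.0877), vehicle replicate 1 or vehicle replicate 3 (0.51 and 0.48, adjusted p = 0.0674 and 0.0792).

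Dhcr7, which reduces 7-dehydrocholesterol to cholesterol in the last step and so also draws on the precursor of vitamin D, went the other way. Its signals were 844, 677 and 804 after DNFB, 896, 763 and 601 after BAC, and 1559, 1078 and 1748 after vehicle. All treated arrays lay below the lowest vehicle array, replicate 2. The log2 change was -0.88 ± 0.18 for DNFB against vehicle (adjusted p = 0.00313) and -0.93 ± 0.18 for BAC against vehicle (adjusted p = 0.00214). It was called with each array left out in turn, at -1.08 to -0.74 for DNFB and -1.13 to -0.78 for BAC.

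**Figure D1:**
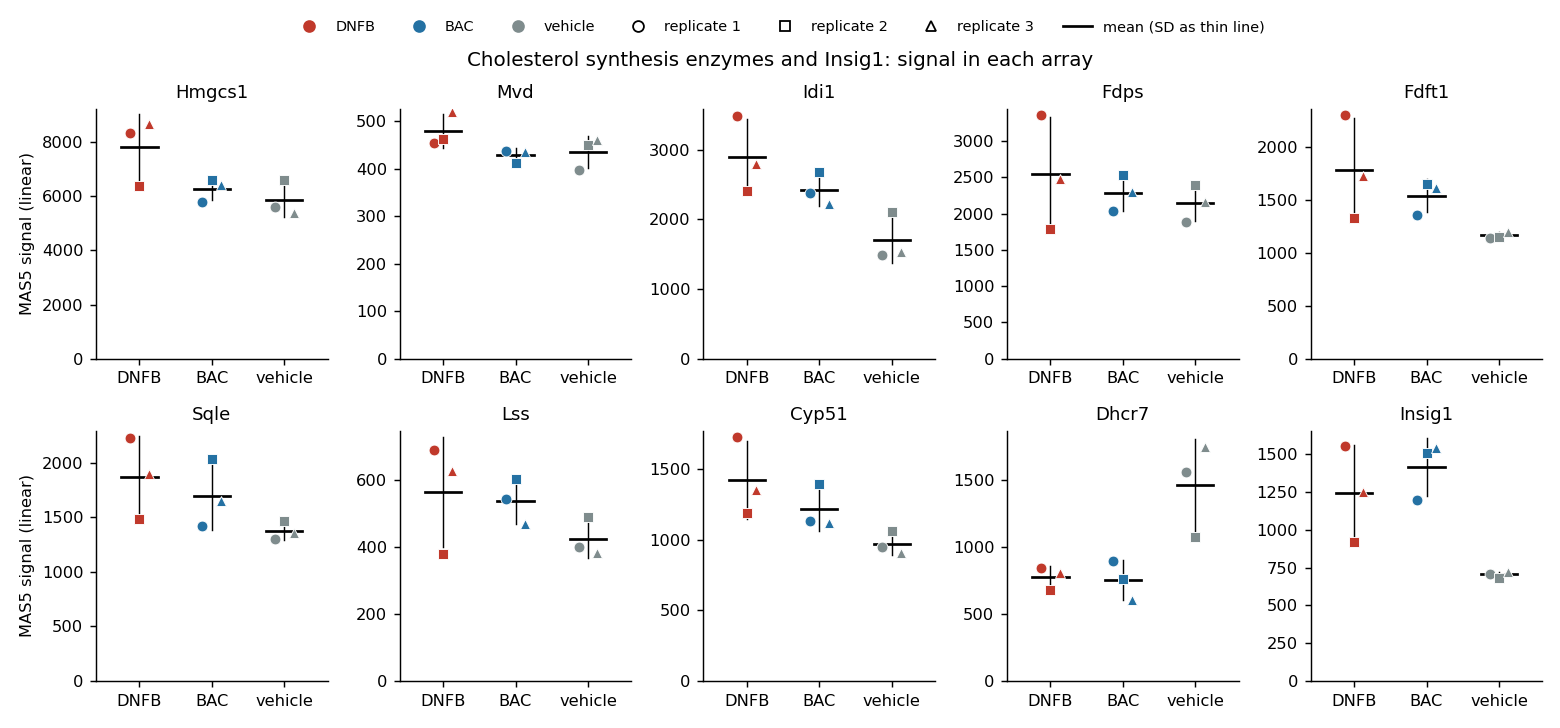
MAS5 signal (linear axis from 0) of the 10 genes in each array, in columns for DNFB, BAC and vehicle, with the shape of the point for the replicate, a bar for the mean and a thin line for the SD (n = 3). Insig1, Idi1, Fdft1 and Cyp51 have all treated arrays above all vehicle arrays, Dhcr7 has all of them below, and in most panels DNFB replicate 1 is on top of its column and replicate 2 at its foot.

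As a group, 9 of the 10 genes had a positive log2 change after DNFB, where 50.3% of all tested genes did, and the median over the 10 was 0.41 against 0.0022 over all tested genes. After BAC 8 of the 10 were positive, against 46.6% of all tested genes, with a median of 0.30 against -0.031. At an unadjusted p under 0.05 were 7 of the 10 after DNFB, beside 26.3% of all tested genes, and 5 of the 10 after BAC, beside 27.7%. Counted by arrays, 5 genes had every DNFB array above every vehicle array and 1 had every one below, against 15.2% and 15.6% of all tested genes. For BAC the counts were 4 above and 1 below, against 14.9% and 19.2%.

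The count of called genes moved with single arrays. After DNFB it was 6 of 10 with all arrays, 8 without DNFB replicate 2, 4 without DNFB replicate 3, and 3 without DNFB replicate 1, vehicle replicate 1 or vehicle replicate 3. Insig1, Idi1 and Dhcr7 were called in each of those fits. After BAC, 3 were called with all arrays and 2 to 4 with 1 array left out, and Insig1 and Dhcr7 were called in each.

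Set directly against each other, DNFB and BAC gave 0 calls among the 10 genes with limma. At an unadjusted p under 0.05 there was 1 of the 10, Hmgcs1, beside 21.6% of all tested genes. Its signal averaged 7794 ± 1234 after DNFB and 6271 ± 427 after BAC (SD, n = 3 each), a log2 change of 0.30 with a 95% interval of 0.040 to 0.56 (adjusted p = 0.166). That change was 0.44 without DNFB replicate 2 (adjusted p = 0.0492), and with its 5 probe sets averaged it turned to -0.040 (adjusted p = 0.894). For Insig1 the change was -0.21, with an interval of -0.55 to 0.13, and for Dhcr7 it was 0.052, with an interval of -0.32 to 0.43. For Idi1 it was 0.24, with an interval of -0.078 to 0.56. The median of the 10 changes was 0.14, beside 0.029 over all tested genes, and 9 of the 10 were positive, where 53.3% of all tested genes were. By arrays, 1 gene, Mvd, had every DNFB array above every BAC array and 0 had every one below, against 13.7% and 11.4% of all tested genes. These intervals leave room for differences between the compounds of the size seen against the vehicle for several enzymes, so the lack of calls does not show that DNFB and BAC act alike on the pathway.

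**Figure D2:**
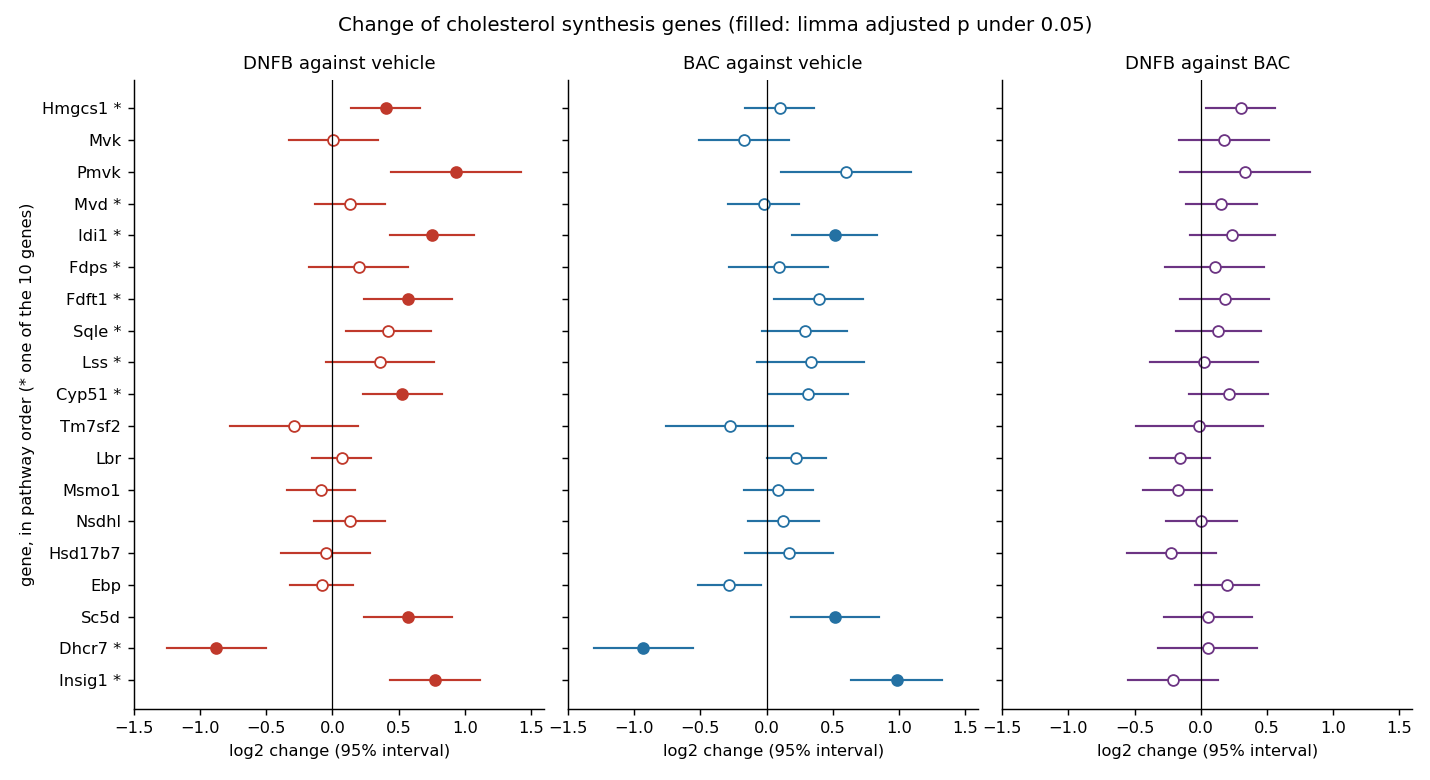
Log2 change with its 95% interval for each cholesterol synthesis gene in pathway order, in panels for DNFB against vehicle, BAC against vehicle and DNFB against BAC; filled points passed the limma test, and stars mark the 10 genes. Filled points lie right of 0 for Insig1, Idi1, Fdft1, Cyp51, Hmgcs1, Pmvk and Sc5d after DNFB, and left of 0 for Dhcr7 after both compounds; the right panel has none.

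Single DNFB arrays are best compared as distances from the vehicle mean on the log2 scale. Averaged over the 10 genes, DNFB replicates 1, 2 and 3 lay 0.58, 0.020 and 0.38 above the vehicle mean, BAC replicates 0.13, 0.33 and 0.16 above it, and vehicle replicates -0.062, 0.066 and -0.0042 from it. Dhcr7 pulls these averages down, and without it they were 0.73, 0.14 and 0.51 for DNFB, 0.22, 0.46 and 0.31 for BAC, and -0.082, 0.12 and -0.036 for vehicle. The DNFB arrays thus span a wider range than the BAC arrays, and DNFB replicate 2 lies below all BAC arrays and next to vehicle replicate 2. Over all tested genes DNFB replicate 1 was the highest of its group in 34.8% and replicate 2 the lowest in 30.6%. In the BAC group replicate 2 was the highest for 7 of the 10 genes, and for 33.1% of all tested genes.

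**Figure D3:**
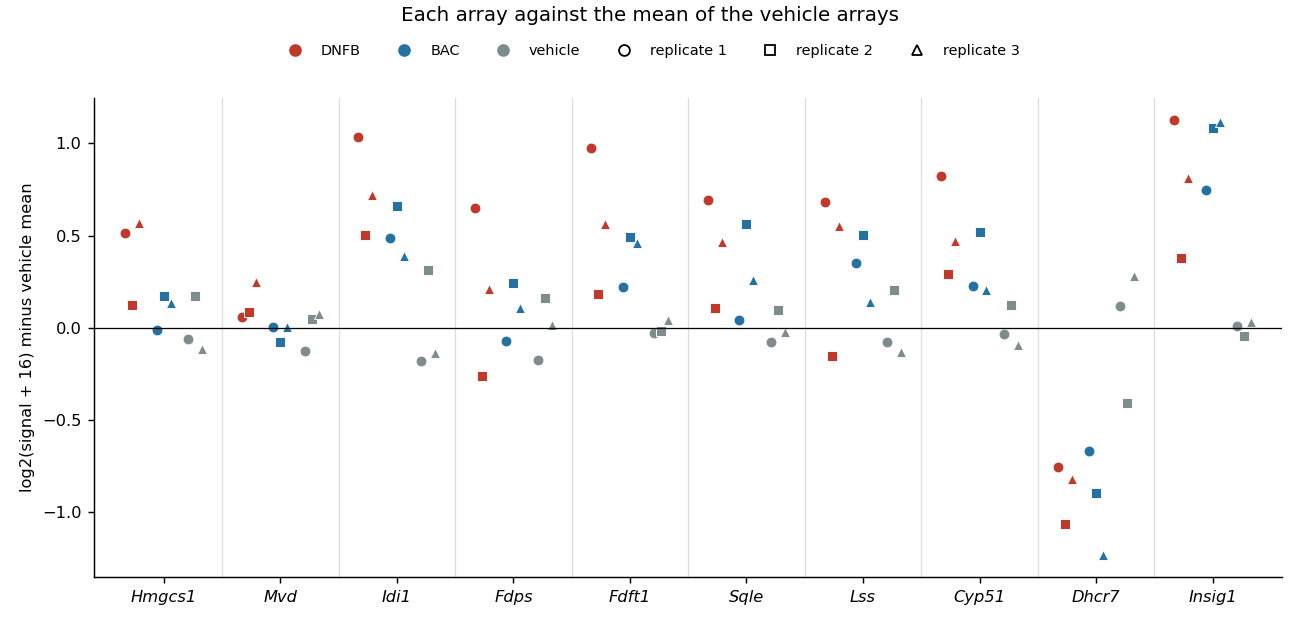
Distance of each array from the mean of the vehicle arrays, as log2(signal + 16), for the 10 genes in pathway order, with colours for DNFB, BAC and vehicle and shapes for replicates. DNFB replicate 1 (circle) is above replicate 3 (triangle), and replicate 3 above replicate 2 (square), for Idi1, Fdps, Fdft1, Sqle, Lss, Cyp51, Dhcr7 and Insig1. Dhcr7 has this order although it is below 0 in every treated array.

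The genes varied together to different degrees over the 9 arrays. Pearson's r between a gene and the mean of the other 9, on centred log2 values, was 0.945 for Sqle, 0.937 for Fdft1, 0.924 for Cyp51, 0.898 for Lss and 0.857 for Fdps. It was 0.839 for Idi1, 0.821 for Hmgcs1 and 0.672 for Insig1, 0.285 for Mvd and -0.638 for Dhcr7. Fdps and Lss, which were not called against the vehicle, tracked the other enzymes from array to array more closely than Insig1 did. These r describe 9 arrays that share scaling and treatment, and carry no test. Outside the 10, the tested genes whose values followed their mean most closely were Bop1 (r = 0.961), Fam167a (0.958), Cars (0.940), Nop2 (0.934), 2900060N12Rik (0.927) and Ppp4c (0.923), none of which was called in any comparison.

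Most genes have more than 1 probe set, and these did not all move alike. Over the 29987 probe sets above the filter, 10.4% were called in DNFB against vehicle (4.63% higher and 5.81% lower), and of the 20 tested ones of these genes 7 were higher and 1 was lower. In BAC against vehicle 10.2% were called (4.91% higher and 5.25% lower), and 3 of the 20 were higher and 1 was lower. In DNFB against BAC none of the 20 was called, against 4.96% of all (1.95% higher and 3% lower). Idi1 and Fdft1 each had a second probe set that was called higher after DNFB, 1423804_a_at with 0.69 ± 0.19 (adjusted p = 0.0341) and 1438322_x_at with 0.77 ± 0.17 (adjusted p = 0.00946). The second probe set of Cyp51, 1422533_at, changed by 0.52 ± 0.16 without passing (adjusted p = 0.0558).

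Hmgcs1 and Lss were the genes whose probe sets differed most. Of the 5 probe sets of Hmgcs1, 1433443_a_at was called after DNFB (0.40 ± 0.12, adjusted p = 0.0480), and the others had changes of 0.18, 0.21, -0.0015 and 0.42 that did not pass. Its dim probe set 1441536_at was instead called after BAC (0.90 ± 0.26, adjusted p = 0.0410), with signals of 168, 339.8 and 364 in BAC arrays and 148, 134 and 139 in vehicle arrays. For Lss, 1426913_at had changes of opposite sign to the main probe set, -0.20 after DNFB and -0.26 after BAC, neither called. The main probe sets of Lss and Mvd carry the suffix s, which on these arrays marks probes that can match transcripts of more than 1 gene. So do those of Fnta and Nus1, named below. The 4 probe sets below the filter, 1 each of Fdps, Fdft1, Lss and Cyp51, had signals between 2.23 and 64.4 and were not tested.

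**Figure D4:**
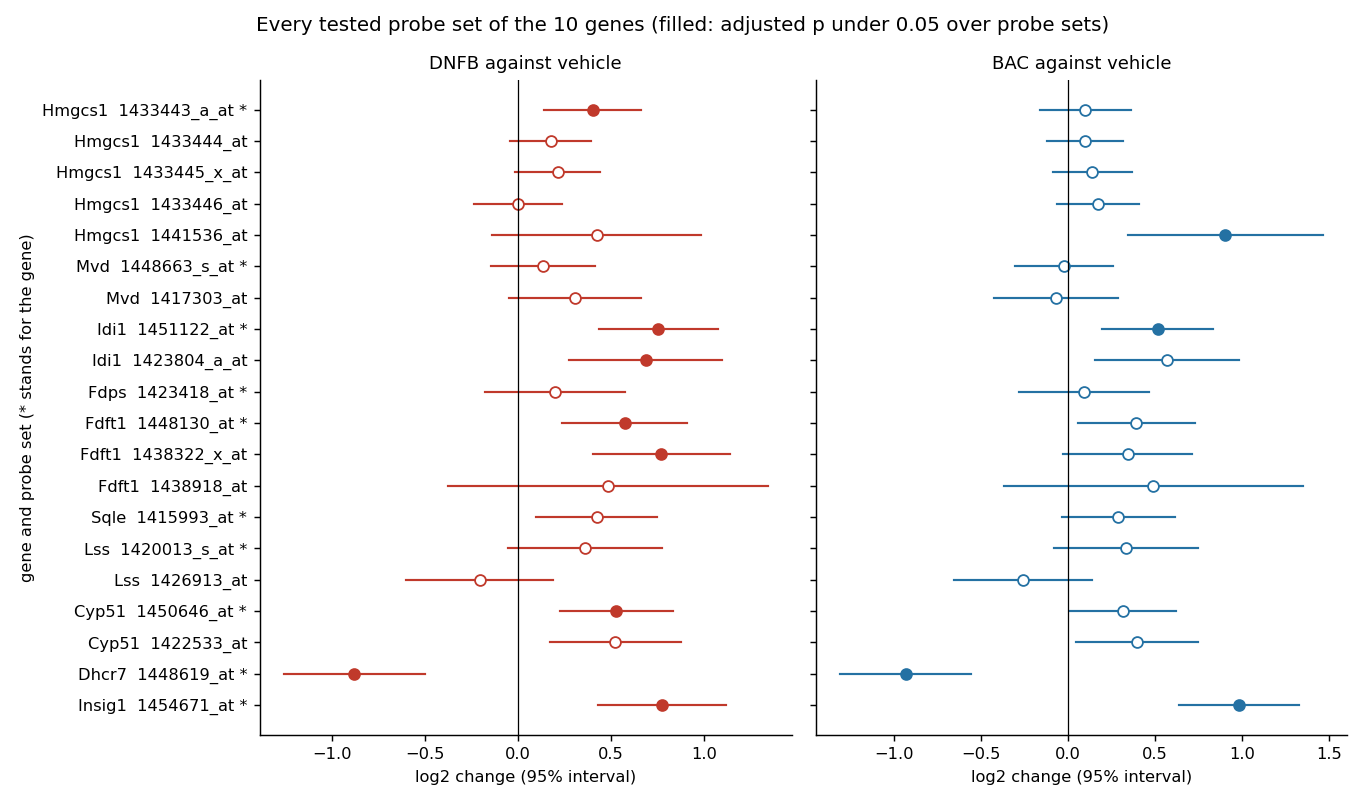
Log2 change with its 95% interval for the 20 tested probe sets of the 10 genes, in panels for DNFB against vehicle and BAC against vehicle; filled points have an adjusted p under 0.05 over all tested probe sets, and a star marks the probe set that stands for its gene. Both probe sets of Idi1 lie right of 0 in both panels, while those of Lss lie on either side of it.

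Of the other enzymes of the pathway 10 have a probe set and 9 were tested (Idi2 was below the filter). Of these 9, 2 were higher and 0 lower after DNFB, beside 6.76% and 7.08% of all tested genes, with a median log2 change of 0.0062. After BAC 1 was higher and 0 lower, beside 6.59% and 7.64%, with a median of 0.13. DNFB against BAC gave 0 calls with limma and 0 genes at an unadjusted p under 0.05, beside 21.6% of all tested genes. Pmvk, the kinase just before Mvd, read 1466, 719 and 788 in DNFB arrays, 644, 937 and 679.7 in BAC arrays, and 486, 602 and 387 in vehicle arrays. Its DNFB replicate 1 stood far above the others, and no treated array overlapped the vehicle. The change was 0.94 ± 0.23 after DNFB (adjusted p = 0.0131), 0.62 without DNFB replicate 1 (adjusted p = 0.0521) and 0.78 without vehicle replicate 3 (adjusted p = 0.0717). After BAC it was 0.60 ± 0.23 (adjusted p = 0.0997), and it passed without DNFB replicate 1 (adjusted p = 0.0297).

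Sc5d, the desaturase that makes the substrate of Dhcr7, was at 1825, 1225 and 1435 after DNFB, 1317, 1440.3 and 1512 after BAC, and 827, 1229 and 941 after vehicle. Vehicle replicate 2 overlapped the DNFB arrays and not the BAC arrays. Its change was 0.57 ± 0.16 after DNFB (adjusted p = 0.0227) and 0.52 ± 0.16 after BAC (adjusted p = 0.0363), so the enzyme next to Dhcr7 in the pathway was called in the opposite direction. The DNFB call was lost without DNFB replicate 1 or 3 or vehicle replicate 1 or 3 (0.42 to 0.59, adjusted p 0.0507 to 0.117). The BAC call was lost without DNFB replicate 3, BAC replicate 2 or 3, or vehicle replicate 1 or 3 (0.40 to 0.52, adjusted p 0.0501 to 0.170), and averaging its 3 probe sets gave a BAC change of 0.19. The remaining 7, the kinase Mvk, the sterol reductases Tm7sf2 and Lbr, the demethylation enzymes Msmo1, Nsdhl and Hsd17b7, and the isomerase Ebp, had changes of -0.29 (Tm7sf2) to 0.13 (Nsdhl) after DNFB and -0.28 (Ebp and Tm7sf2) to 0.23 (Lbr) after BAC.

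Of 10 tested genes that sense sterol and process SREBP, 0 were higher and 2 lower after DNFB (beside 13.8% of all tested genes called), and 1 was higher and 0 lower after BAC (beside 14.2%), with median log2 changes of -0.12 and -0.14. Insig2, the paralog of Insig1, had signals of 681, 811 and 678 in DNFB skin, 844, 1022 and 859 in BAC skin, and 1033, 1239 and 1096 in vehicle skin. All treated arrays lay below all vehicle arrays. Insig2 changed by -0.62 ± 0.12 after DNFB (adjusted p = 0.00300) and -0.30 ± 0.12 after BAC (adjusted p = 0.123), so the paralogs were called in opposite directions after DNFB. Rnf139, a ubiquitin ligase of the endoplasmic reticulum, changed by -0.43 ± 0.12 after DNFB (adjusted p = 0.0226), a call lost without DNFB replicate 1 or 2 or any 1 vehicle array (-0.45 to -0.39, adjusted p 0.0564 to 0.0722).

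Srebf2, which encodes SREBP2, had a change of 0.12 ± 0.16 after DNFB (adjusted p = 0.700) and 0.27 ± 0.16 after BAC (adjusted p = 0.305). Its signal averaged 722 ± 168 in DNFB skin, 791 ± 112 in BAC skin and 651 ± 44.6 in vehicle skin (SD, n = 3 each), with DNFB replicate 2 again the lowest. Erlin1, whose protein binds the SREBP, SCAP and INSIG complex, was at 778 ± 39.4 after DNFB, 1138 ± 36.7 after BAC and 862 ± 93.4 after vehicle. It changed by 0.40 ± 0.11 in BAC against vehicle (adjusted p = 0.0265) and -0.54 ± 0.11 in DNFB against BAC (adjusted p = 0.00864). With the mean of its 2 probe sets the first of these turned to -0.31 and the second was -0.0017, and the first was also lost without any 1 BAC array or without vehicle replicate 1 or 3 (0.36 to 0.42, adjusted p 0.0501 to 0.120).

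Among 8 tested genes for sterol uptake and transport, 2 were higher and 0 lower after DNFB, beside 6.76% and 7.08% of all tested genes. For BAC 0 were higher and 2 lower, beside 6.59% and 7.64%, and the medians were 0.20 (DNFB) and -0.20 (BAC). Lrp8, an apolipoprotein E receptor, was dim, with 1 of its 3 vehicle arrays above the low-signal filter, at 183, 135 and 116 after DNFB, 59.2, 91.4 and 72.3 after BAC, and 52.7, 41.5 and 7.88 after vehicle. Each group's arrays lay apart from those of the others, and its change was 1.80 ± 0.38 after DNFB (adjusted p = 0.00500). Its size depends on how these low signals are scaled: it was 2.39 on the scale of log2(signal + 1), 1.11 on that of log2(signal + 64), and 1.33 without vehicle replicate 3. Npc2, of lysosomal cholesterol export, changed by 0.38 ± 0.11 after DNFB (adjusted p = 0.0345), and was not called without any 1 DNFB array, vehicle replicate 1 or vehicle replicate 3 (0.28 to 0.41, adjusted p 0.0595 to 0.157) or with quantile normalization (0.23). Its partner Npc1 was at 319.8, 307 and 399 after DNFB, 358, 219.6 and 238 after BAC, and 526, 396 and 515 after vehicle, and changed by -0.80 ± 0.19 after BAC (adjusted p = 0.00891). Vldlr, a lipoprotein receptor, changed by -0.51 ± 0.16 after BAC (adjusted p = 0.0466), a call lost without DNFB replicate 2, BAC replicate 1 or 3, or vehicle replicate 1 or 3 (-0.51 to -0.42, adjusted p 0.0550 to 0.187).

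Of 8 tested genes listed for the receptor LXR and the export of sterol, 1 was higher and 2 lower after DNFB. Over all tested genes 6.76% were higher and 7.08% lower. After BAC 0 were higher and 2 lower, beside 6.59% and 7.64%, with medians of -0.34 after DNFB and -0.15 after BAC. Abcg1, an efflux transporter, had signals of 208, 248 and 251 in DNFB skin, 318, 388 and 346 in BAC skin, and 410.0, 363 and 420.3 in vehicle skin. The DNFB arrays lay below all others, and the change was -0.72 ± 0.14 (adjusted p = 0.00325). Abca1, the other main efflux transporter, changed by -0.56 ± 0.15 after DNFB (adjusted p = 0.0210) and -0.50 ± 0.15 after BAC (adjusted p = 0.0350). The DNFB call of Abca1 was lost without DNFB replicate 1 or 2 or vehicle replicate 1 (-0.54 to -0.43), and its BAC call without BAC replicate 2 or 3 or vehicle replicate 1 or 3 (-0.56 to -0.37). With the mean of its 3 probe sets the changes of Abca1 were -0.18 and -0.020 (adjusted p = 0.585 and 0.963).

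The other called genes of that list were Mylip, a ubiquitin ligase for lipoprotein receptors, and Apoe, an apolipoprotein. Mylip changed by -0.67 ± 0.15 after BAC (adjusted p = 0.00805), and by -0.52 without vehicle replicate 1 (adjusted p = 0.0511). Apoe changed by 0.35 ± 0.10 after DNFB (adjusted p = 0.0373), and was not called without any 1 DNFB array or vehicle replicate 1 or 3 (0.27 to 0.38, adjusted p 0.0633 to 0.155) or with quantile normalization (0.16).

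After BAC the gene of these sterol lists with the largest change was Ch25h, which makes 25-hydroxycholesterol, an oxysterol that INSIG proteins bind. It read 469, 366 and 274 after DNFB, 800.0, 1522 and 1353 after BAC, and 139, 134 and 93.9 after vehicle. The 3 groups did not overlap, with BAC highest and vehicle lowest. The change was 1.46 ± 0.23 after DNFB (adjusted p = 0.000535), 3.13 ± 0.23 after BAC (adjusted p = 2.80e-07) and -1.67 ± 0.23 in DNFB against BAC (adjusted p = 0.000380). Of the 9 tested oxysterol and cholesterol ester genes, 1 was higher and 1 lower after DNFB, beside 6.76% and 7.08% of all tested genes. With BAC 2 were higher and 0 lower, beside 6.59% and 7.64%, and the medians were 0.29 (DNFB) and -0.088 (BAC). Besides Ch25h the called genes were Sult2b1, which sulfates cholesterol in the epidermis (-0.68 ± 0.18 after DNFB, adjusted p = 0.0219), and Cyp7b1, which breaks oxysterols down (0.66 ± 0.20 after BAC, adjusted p = 0.0374). The call of Sult2b1 was lost without DNFB replicate 2 or vehicle replicate 2 or 3 (-0.64 to -0.49, adjusted p 0.0599 to 0.117), and that of Cyp7b1 without BAC replicate 1 or 2 or vehicle replicate 1 or 3 (0.50 to 0.66, adjusted p 0.0780 to 0.165).

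**Figure D5:**
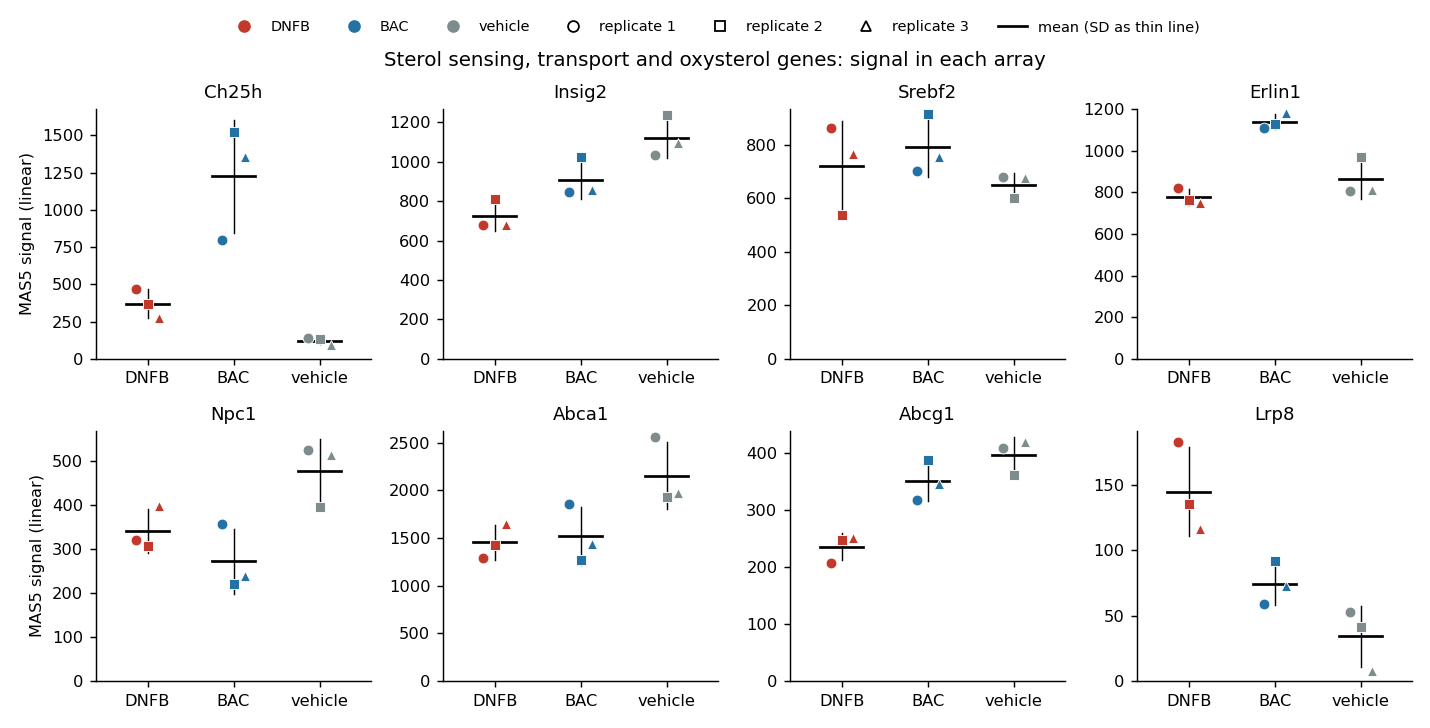
MAS5 signal (linear axis from 0) of 8 sterol sensing, transport and oxysterol genes in each array, in columns for DNFB, BAC and vehicle, with shapes for replicates, a bar for the mean and a thin line for the SD (n = 3). Ch25h is highest after BAC and lowest after vehicle, Insig2 and Abcg1 are lowest after DNFB, and Erlin1 is highest after BAC.

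In the neighbouring lipid branches, limma called 0 of 13 tested fatty acid synthesis genes, which SREBP1 drives, after DNFB. There 6 had an unadjusted p under 0.05, as did 26.3% of all tested genes. BAC gave 1 call, the desaturase Scd2, beside 14.2% of all tested genes, and the medians were -0.0023 (DNFB) and -0.020 (BAC). Scd2 changed by 0.28 ± 0.10 after DNFB (adjusted p = 0.0646) and 0.49 ± 0.10 after BAC (adjusted p = 0.00311), and the BAC call was lost with median centring (0.40) and when its probe sets were averaged (0.46, adjusted p = 0.0668). Of 8 tested genes of the isoprenoid branch, limma called 0 after DNFB (1 had an unadjusted p under 0.05, beside the same 26.3%). BAC gave 1 lower call, beside 7.64% of all tested genes. It was Fnta, a subunit of farnesyltransferase, at -0.49 ± 0.13 (adjusted p = 0.0240). The medians were 0.0085 (DNFB) and -0.29 (BAC). The call of Fnta was lost without BAC replicate 1 or 2 or vehicle replicate 1 or 2 (-0.49 to -0.40, adjusted p 0.0548 to 0.109). Nus1, of dolichol synthesis, had the smallest p of its branch after DNFB (0.29 ± 0.12, adjusted p = 0.138).

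Ear skin holds many cell types, and a lower signal from fewer cells of a type cannot be told apart from less RNA per cell. Markers of the cells that make cholesterol in skin were in part lower in the treated ears. Of all tested genes, 6.76% were called higher and 7.08% lower after DNFB, and 6.59% and 7.64% after BAC. Of 13 keratinocyte markers, 7 were lower after DNFB and 6 after BAC, and 0 were higher. Their summed signal was 84837 to 97547 in DNFB arrays, 89571 to 92843 in BAC arrays and 95177 to 107820.0 in vehicle arrays. Markers of the labelled tissue were thus present in all 9 arrays. This sum leans on bright probe sets such as that of Krt10, which averaged 27482 after DNFB and 21918 after vehicle (not called). After DNFB 2 of the 13 had a positive log2 change, and the median was -0.45. Of 9 sebaceous gland markers, 1 was higher and 4 lower after DNFB, and 1 was higher and 1 lower after BAC, with sums of 12605 to 14837 (DNFB), 14403 to 17873 (BAC) and 18525 to 20347 (vehicle).

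Markers of blood cells and deeper tissue were in part higher, where 6.76% of all tested genes were higher after DNFB and 6.59% after BAC. Of 6 neutrophil markers 5 were higher after DNFB and 6 after BAC, with sums of 10787 to 20438 in DNFB arrays, 19207 to 27881 in BAC arrays and 1207 to 5698 in vehicle arrays. A sum follows its brightest probe sets, here S100a8 and S100a9. Their DNFB means were 6587 and 6493, against 95.7 (Cxcr2) to 794 (Clec4d) for the rest. They read 2565 and 2633 in vehicle replicate 2, the array with the highest vehicle sum. Of 7 monocyte and macrophage markers 4 were higher after each compound, with sums of 13196 to 14554 (DNFB), 15378 to 16349 (BAC) and 10139.6 to 11865 (vehicle). Of 10 skeletal muscle markers 5 were higher after DNFB and 0 after BAC, with sums of 39613 to 49531 (DNFB), 32286 to 48845 (BAC) and 28484 to 38048 (vehicle). Of 8 fibroblast markers 2 were higher after DNFB and 1 after BAC, of 7 endothelial markers 2 and 1, and of 7 adipocyte markers 1 and 1, with none lower. Of 5 tested lymphocyte markers 2 were lower after DNFB and 0 after BAC, beside 7.08% and 7.64% of all tested genes. In lists this short, 1 or 2 calls say little. No marker was listed at 0 in any array, since MAS5 signals stay above it. The part of these shifts in the changes of the 10 genes was not tested.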

How the data were processed

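Biotin-labelled cRNA of total ear skin RNA was read on Affymetrix arrays, as the labels' protocols state. The authors deposited linear intensities, 1 signal per probe set, made with MAS5 and Affymetrix Expression Console, per the submitters' processing notes; no settings are given in the sources used here. Of 45101 probe sets, 64 controls were left out and 34945 have 1 gene symbol in the platform annotation. Its brightest probe set by mean log2 value stood for a gene (18193 genes) and tested when above the 40th percentile in at least 3 arrays (14122). All 9 arrays entered 1 limma fit (limma 3.58.1, R 4.3.3; eBayes with an intensity trend, 6 residual degrees of freedom) of log2(signal + 16), two-sided, with Benjamini-Hochberg adjustment; a second fit covered 29987 probe sets. With 3 arrays a group no exact permutation p can be under 0.1, so none was computed. The fit was tested on simulated data. The 10 genes, the other gene lists and the tests were chosen with earlier results of these data known. Text names all 10 genes and all other cholesterol enzymes, up to 3 called genes with the largest change per other pathway list and comparison with vehicle (or the one with the smallest p), and the 6 genes that follow the 10 most closely; Srebf2, the genes named for DNFB against BAC and second probe sets were added after their values were seen. Alternatives were pseudocounts, filters, scaling, the probe set rule, the variance model, array weights, a replicate block and each array left out. The number of arrays limits the precision.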

Additional observations from a re-analysis of the deposited data

How the results depend on the processing

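Alternatives were pseudocounts of 1 and 64, no filter or one at the 60th percentile, median centring, quantile normalization, no intensity trend, averaged probe sets, only the groups compared, array weights, a replicate block, and each array left out in turn, 20 in all for a gene. Under all 20, the calls of Insig1, Idi1 and Dhcr7 after DNFB and of Insig1 and Dhcr7 after BAC held. Cyp51 was called in 16, Fdft1 in 14 and Hmgcs1 in 8 after DNFB, and Idi1 in 14 after BAC. Not all 20 could change every gene. Insig1 and Dhcr7 have 1 probe set each, so averaging probe sets left their values as they were. In a comparison with vehicle, leaving out an array of the other compound changes only the shared estimate of the spread, not the log2 change. Without the intensity trend 3 of the 10 genes, 0 of the other enzymes, 0 probe sets of the 10 genes and 1202 genes in all were called after DNFB, against 6, 2, 8 and 1955, and 0 other enzymes and 2 probe sets after BAC, against 1 and 4; for DNFB against BAC it called 402 genes, against 961. With the mean of probe sets 1 other enzyme was called after DNFB and 0 after BAC. Of the other enzymes after BAC, 0 were called with no filter, median centring or the replicate block, and 2 with only the compared groups or array weights; median centring left 2 of the probe sets called.

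With single arrays left out, the calls after DNFB were 3 to 8 of the 10 genes, 0 to 2 other enzymes, 3 to 11 probe sets and 1249 to 1929 genes in all. After BAC they were 0 to 2 other enzymes, 2 to 5 probe sets and 1225 to 2148 genes, and for DNFB against BAC 0 to 1 of the 10 genes, 0 to 1 probe sets and 513 to 999 genes. Fewer samples enter these fits; beyond that the cause of these shifts was not tested.

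Changes that turned sign were not called under the alternative. After DNFB they were Mvk (-0.0065 with median centring, -0.47 with the mean of probe sets, -0.012 with array weights) and Srebf2 (-0.013 with the mean of probe sets). After BAC they were Hmgcs1 (-0.0048 with quantile normalization), Mvd (0.040 with quantile normalization, 0.027 with array weights), Msmo1 (-0.14) and the called Erlin1 (-0.31), both with the mean of probe sets. In DNFB against BAC the mean of probe sets gave -0.040 for Hmgcs1, -0.12 for Fdps and -0.077 for Lss. Leaving out single arrays gave ranges that cross 0 after DNFB for Fdps (-0.025 to 0.43), Mvk (-0.079 to 0.18), Msmo1 (-0.24 to 0.021), Hsd17b7 (-0.26 to 0.062) and Srebf2 (-0.020 to 0.32), after BAC for Mvd (-0.085 to 0.016), and in DNFB against BAC for Fdps (-0.12 to 0.34), Fdft1 (-0.019 to 0.38), Sqle (-0.0019 to 0.29), Lss (-0.13 to 0.29) and Dhcr7 (-0.098 to 0.18).

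Arrays with the same replicate number did not deviate together (r of -0.12 to 0.15 over the 3 pairs of each comparison), so the numbers were not taken as pairs. With the replicate number as a block, 5 of the 10 genes were called after DNFB, 3 after BAC and 0 in DNFB against BAC; the gene lost was Hmgcs1 (adjusted p = 0.0672), and among the other genes named, Npc2 and Apoe after DNFB (0.05002 and 0.0622) and Sc5d and Vldlr after BAC (0.0547 and 0.0566) also lost their calls.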
